A study of Mus musculus with 9 samples.

Results

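Hepatocytes make most of the protein of blood plasma, and the 10 genes described here code for plasma proteins that are read as products of this cell: albumin (Alb), alpha-fetoprotein (Afp), transthyretin (Ttr), transferrin (Trf), apolipoproteins A-I (Apoa1) and B (Apob), the 3 fibrinogen chains (Fga, Fgb, Fgg) and fetuin-A (Ahsg). They were taken by symbol from a table of 55276 genes. RNA was measured in PPTR cells, a mouse intrahepatic cholangiocarcinoma (iCCA) line grown in plastic culture from liver cancer organoids. These carry Prom1CreERT2, in which Cre is driven from the Prom1 locus, a Rosa-ZsGreen reporter and further floxed alleles. By the paper's account of their origin control and edited cells share all of these, which was not checked here. The control is Vcam1ctrl (labelled WT), and Vcam1KO1 and Vcam1KO2 are single-cell clones made with Cas9 and a guide against Vcam1, each group being 1 culture or clone sequenced in 3 libraries from different passages, 9 libraries in all. The p values therefore measure the spread between passages of 1 culture, and a clone's own history cannot be told apart from the edit. Library totals ran from 53415907 to 125223073 counts, and 8 of the 10 genes were among the 17672 that passed the filter on low counts and could be tested.

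Cholangiocytes, the cells of the bile duct, and hepatocytes come from a common embryonic progenitor, the hepatoblast. Albumin is the main carrier and osmotic protein of plasma and alpha-fetoprotein its relative in the fetus, silenced after birth and made again in some liver tumors. Transthyretin carries thyroid hormone and retinol-binding protein, transferrin carries iron, and apolipoproteins B and A-I are the structural proteins of low-density and high-density lipoproteins. The fibrinogen chains assemble into the clotting protein, and fetuin-A binds calcium phosphate. Their promoters are classical targets of the factors HNF4, FOXA and C/EBP, and apolipoprotein B is also made in the intestine.

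As a check of the labels, Vcam1 lay between 221 and 329 CPM (counts relative to library size, scaled with TMM factors) in Vcam1ctrl and between 83.0 and 128 CPM in the clones, so transcript remained in every edited library. The paper reports that both clones lost Vcam1 by qRT-PCR and by flow cytometry, and protein was not measured here. The forward primer of that qRT-PCR lies over the sequence that the guide targets, while CPM counts reads of the whole gene, so these measures are not alike. The control libraries held Krt8, a keratin of simple epithelia listed below among cholangiocyte markers, at 5201 to 5570 CPM. In the 6 clone libraries Krt8 was at most 0.497 CPM, so this marker of the labelled cell type was near 0 there. Of 30 listed hepatocyte enzymes and transporters 20 failed the filter and 10 passed, close to the share of all genes that passed (17672 of 55276). Cyp3a11 and Hpd had 0 counts everywhere, and Cyp2e1, Otc and Tat had at most 3 counts in any library. The summed level of this list was 268 to 302 CPM in Vcam1ctrl, 347 to 461 CPM in Vcam1KO1 and 286 to 328 CPM in Vcam1KO2. Vcam1ctrl replicate 3 was the highest control library for 7 of the 8 tested plasma protein genes, and Vcam1KO1 replicate 3 and, by less, Vcam1KO2 replicate 3 stood apart from the other libraries of their clones (a chi-square of counts per degree of freedom of 268 and 317, and of 177 and 121, where the other pair of each clone had 40.6 and 37.9). The control pairs had 133 (replicates 1 and 2), 97.5 (1 and 3) and 184 (2 and 3). Values without some of these libraries are given below.

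The stretch of 150 bases before the RefSeq start site (GRCm38.p6) is shown for 5 of the genes, because the albumin pair and the fibrinogen pair lie next to each other and moved differently, and Apob had the largest fitted decrease in Vcam1KO1. The gene positions given below are from GENCODE and can start elsewhere. Those of Fga and Apob begin inside the window shown, and those of Alb and Afp after it. Capitals mark exact matches, on either strand, to the C/EBP motif TTGCNNAA, the FOXA motifs TGTTTAC and TGTTTGC and, on the gene's own strand, the TATA box TATAAA.
Alb (chr5:90460720-90460869, + strand): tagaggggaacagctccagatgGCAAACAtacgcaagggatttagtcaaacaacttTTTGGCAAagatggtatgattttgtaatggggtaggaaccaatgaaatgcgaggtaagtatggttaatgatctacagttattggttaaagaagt
Afp (chr5:90490564-90490713, + strand): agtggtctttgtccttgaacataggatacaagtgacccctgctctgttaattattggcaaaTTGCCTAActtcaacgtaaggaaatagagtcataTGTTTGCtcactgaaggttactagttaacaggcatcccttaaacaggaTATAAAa
Fga (chr3:83026003-83026152, + strand): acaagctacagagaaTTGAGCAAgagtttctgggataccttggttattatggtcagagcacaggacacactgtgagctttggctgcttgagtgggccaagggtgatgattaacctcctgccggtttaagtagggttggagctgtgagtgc
Fgb (chr3:83049864-83050013, - strand): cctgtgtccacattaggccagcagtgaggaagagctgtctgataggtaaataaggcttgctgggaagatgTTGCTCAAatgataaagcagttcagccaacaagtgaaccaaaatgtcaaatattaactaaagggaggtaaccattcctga
Apob (chr12:7977527-7977676, + strand): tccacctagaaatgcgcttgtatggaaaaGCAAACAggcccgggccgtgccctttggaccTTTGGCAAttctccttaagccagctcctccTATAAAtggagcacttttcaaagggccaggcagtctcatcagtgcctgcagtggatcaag

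RefSeq windows of 300 bases (250 before to 50 after the start) were found for 8 of the 10 genes. TTGCNNAA stood in 6 of these 8 windows (Alb, Afp, Apob, Fga, Fgb, Ahsg) against 10.8% of the 32851 windows of all genes, and TGTTTGC in 5 (Alb, Afp, Apoa1, Apob, Ahsg) against 5.07%, and the last 4 letters of TGTTTGC can be the first of TTGCNNAA. TGTTTAC (3.65% of all windows) and the HNF4 core CAAAGTCC (1.42%) matched none of the 8, and TATAAA stood in Afp and Apob (8.32% of all). Counted from the RefSeq start, TATAAA lay at bases -7 to -2 in Afp and -60 to -55 in Apob. Alb and Afp both carried TTGCNNAA and TGTTTGC and moved in opposite directions in the clones. Fga and Fgb both carried TTGCNNAA and did so in Vcam1KO1.

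The comparison of each clone with Vcam1ctrl asks how the liver products of these tumor cells stood in cells edited at Vcam1. Trf, Apob, Ttr and Fgb fell to a few CPM or to traces in both clones, Alb fell in both and Apoa1 in Vcam1KO2, while Afp rose in both and Fga rose in Vcam1KO1 (log2 values below). In Vcam1KO1 the call of Alb was lost without Vcam1ctrl replicate 3 (adjusted p = 0.21) and that of Fga without Vcam1ctrl replicate 1 (adjusted p = 0.093), among other libraries. In Vcam1KO1 2 of the 8 tested genes rose, 5 fell and 1 was not called at an adjusted p of 0.05, where 29.9% of all tested genes rose and 30.0% fell. In Vcam1KO2 1 rose, 6 fell and 1 was not called, against 25.3% and 26.1% of all tested genes. The median log2 fold change of the 8 genes was -4.85 in Vcam1KO1 and -7.02 in Vcam1KO2, where that of all tested genes was 0.02 and 0.00. Because Ttr and Fgb passed the filter through the control libraries alone, Apoa1 and Apob nearly so, and Afp through the clone libraries alone, these genes had to differ to be tested, and the counts and medians describe the genes without supporting a statement on them as a set. Fgg and Ahsg were below the filter in every group.

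**Figure D1:**
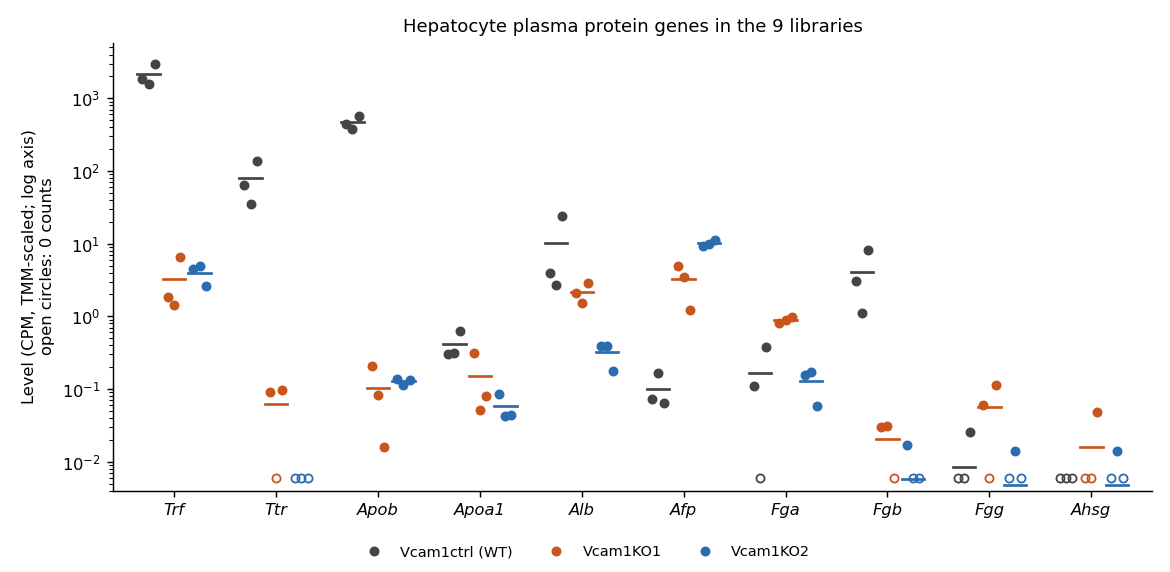
Level of each of the 10 plasma protein genes in CPM on a log axis, with a point for each of the 3 libraries of Vcam1ctrl, Vcam1KO1 and Vcam1KO2, a bar for the group mean, and open circles at the foot for libraries with 0 counts. Trf, Ttr, Apob and Fgb lie far above the clones in every control library, Afp lies below them, and Alb of Vcam1ctrl overlaps Vcam1KO1.

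Transferrin was the most abundant product. Trf (ENSMUSG00000032554.15, chr9:103204001-103230444) stood at 1827, 1578 and 2983 CPM in the Vcam1ctrl libraries, at 1.84, 1.41 and 6.45 CPM in Vcam1KO1 and at 4.44, 4.88 and 2.62 CPM in Vcam1KO2. Every control library lay above every clone library. The log2 change was -9.37 in Vcam1KO1 (standard error 0.74, adjusted p = 5.4e-06) and -9.06 in Vcam1KO2 (standard error 0.73, adjusted p = 8.1e-06), which is 664-fold and 535-fold. Replicate 3 set the Vcam1KO1 mean of 3.23 ± 2.79 CPM (SD, n = 3), and without it the change in that clone was -10.36 (adjusted p = 7.2e-07). Trf alone made up 78.0% to 80.1% of the summed CPM of the 10 genes in control libraries, whose sum was 1998 to 3723 CPM, and the sums in the clones were 7.50 to 11.8 CPM and 14.4 to 15.5 CPM.

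Transthyretin fell to traces in Vcam1KO1 and had no counts in Vcam1KO2. Ttr (ENSMUSG00000061808.4) stood at 64.5, 35.4 and 138 CPM in Vcam1ctrl, and only 12 counts were found in Vcam1KO1 (6, 0 and 6 per library) and 0 in the 3 Vcam1KO2 libraries. The ratio of control to Vcam1KO1 was 1517 (95% counting interval 869 to 2937), and against a limit of 3 counts over the group the control was at least 5299.8-fold higher than Vcam1KO2. Both differences passed the test (adjusted p = 4.0e-05 in each clone). The fitted change in Vcam1KO1 was -10.46 (standard error 0.89), with -9.79 without Vcam1ctrl replicate 3 and -9.71 without Vcam1KO1 replicate 2.

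Apolipoprotein B showed the largest fitted decrease of the 8 tested genes in Vcam1KO1. Apob (ENSMUSG00000020609.14, chr12:7977648-8016835) stood at 445, 380 and 568 CPM in Vcam1ctrl, at 0.210, 0.0835 and 0.0160 CPM in Vcam1KO1 (14, 8 and 1 counts) and at 0.137, 0.113 and 0.133 CPM in Vcam1KO2 (8, 8 and 9 counts). The log2 change was -12.12 (standard error 0.48, adjusted p = 1.1e-07) in Vcam1KO1 and -11.81 (standard error 0.47, adjusted p = 1.8e-07) in Vcam1KO2. The control libraries varied by 1.49-fold between the lowest and the highest, and the clones' values are near the detection limit. Without Vcam1KO1 replicate 1 the change in that clone was -13.03.

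Apolipoprotein A-I was scarce throughout. Apoa1 (ENSMUSG00000032083.8, chr9:46228580-46230466) stood at 0.303, 0.314 and 0.620 CPM in Vcam1ctrl, at 0.314, 0.0522 and 0.0798 CPM in Vcam1KO1 and at 0.0857, 0.0424 and 0.0444 CPM in Vcam1KO2. Vcam1KO1 replicate 1 lay within the control range and the other clone libraries below it. The change was -1.49 (standard error 0.63, adjusted p = 0.067) in Vcam1KO1, which did not pass, and -2.83 (standard error 0.72, adjusted p = 0.0086) in Vcam1KO2, which did. Without replicate 1 the Vcam1KO1 value was -2.70 (adjusted p = 0.0046), and with limma-voom it was -1.79 (adjusted p = 0.026), so that this call rests on 1 library and on the method.

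Albumin varied widely between control libraries. Alb (ENSMUSG00000029368.10, chr5:90460897-90476602) stood at 3.90, 2.68 and 23.9 CPM in Vcam1ctrl, so that replicate 3 was 7.28 times the mean of the other two. It stood at 2.10, 1.51 and 2.84 CPM in Vcam1KO1, overlapping the control, and at 0.394, 0.396 and 0.177 CPM in Vcam1KO2, below every other library. The log2 change was -2.25 in Vcam1KO1 (standard error 0.75, adjusted p = 0.027) and -4.98 in Vcam1KO2 (standard error 0.88, adjusted p = 0.0011). The decrease in Vcam1KO1 rested on Vcam1ctrl replicate 3, without which it was -0.63 (adjusted p = 0.21), and it also missed the threshold without Vcam1KO1 replicate 1 (-2.30, adjusted p = 0.066) or replicate 2 (-2.04, adjusted p = 0.082) and with limma-voom (-1.63, adjusted p = 0.096). The decrease in Vcam1KO2 was -3.35 (adjusted p = 3.5e-04) without Vcam1ctrl replicate 3.

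Alpha-fetoprotein moved the other way. Afp (ENSMUSG00000054932.6, chr5:90490737-90508907) stood at 0.0717, 0.166 and 0.0632 CPM in Vcam1ctrl (9, 9 and 5 counts), at 4.97, 3.53 and 1.21 CPM in Vcam1KO1 and at 9.30, 9.90 and 11.4 CPM in Vcam1KO2. The 3 groups did not overlap. It rose by a log2 of 5.10 in Vcam1KO1 (standard error 0.58, adjusted p = 5.8e-05) and of 6.75 in Vcam1KO2 (standard error 0.61, adjusted p = 1.6e-05), and over all alternatives and left-out libraries the changes ranged from 4.61 to 5.50 and from 6.52 to 7.17. As a ratio of scaled counts this was 37.3 (95% counting interval 24.6 to 59.1) and 115 (76.5 to 182). Per kb of coding sequence the level of Afp in Vcam1KO2 was 5.62 ± 0.59 CPM (SD, n = 3), beside 5.57 ± 6.54 CPM for Alb in Vcam1ctrl.

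The fibrinogen chains did not move together. Fgb (ENSMUSG00000033831.5, chr3:83040141-83049863), the beta chain, stood at 3.08, 1.11 and 8.14 CPM in Vcam1ctrl, and 5 counts were found in Vcam1KO1 and 1 in Vcam1KO2. All control libraries lay above all clone libraries, and the gene was called lower in both clones (adjusted p = 1.5e-04 and 1.4e-04), with ratios of 190 (95% counting interval 81.2 to 586) and 829 (149 to 32786). The fitted log2 change was -7.45 in Vcam1KO1 (-6.50 without Vcam1ctrl replicate 3) and -9.25 in Vcam1KO2 (-8.29 without Vcam1ctrl replicate 3, -11.35 without Vcam1KO2 replicate 1). Fga (ENSMUSG00000028001.16, chr3:83026076-83033627), the alpha chain, stood at 0.112, 0 and 0.379 CPM in Vcam1ctrl, at 0.809, 0.887 and 0.990 CPM in Vcam1KO1 and at 0.154, 0.170 and 0.0592 CPM in Vcam1KO2. It rose in Vcam1KO1 by a log2 of 2.40 (standard error 0.80, adjusted p = 0.026), with every library above the control, and was not called in Vcam1KO2 (-0.40, standard error 0.87, adjusted p = 0.73). That increase missed the threshold without Vcam1ctrl replicate 1 (2.14, adjusted p = 0.093), Vcam1KO1 replicate 1 (2.41, adjusted p = 0.051) or Vcam1KO1 replicate 2 (2.41, adjusted p = 0.052), and was 3.68 (adjusted p = 0.0048) without Vcam1ctrl replicate 3. Fgg (ENSMUSG00000033860.13), the gamma chain, had 2, 11 and 1 counts in the 3 groups, and Ahsg (ENSMUSG00000022868.6) had 0, 3 and 1, too few for a statement on either.

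**Figure D2:**
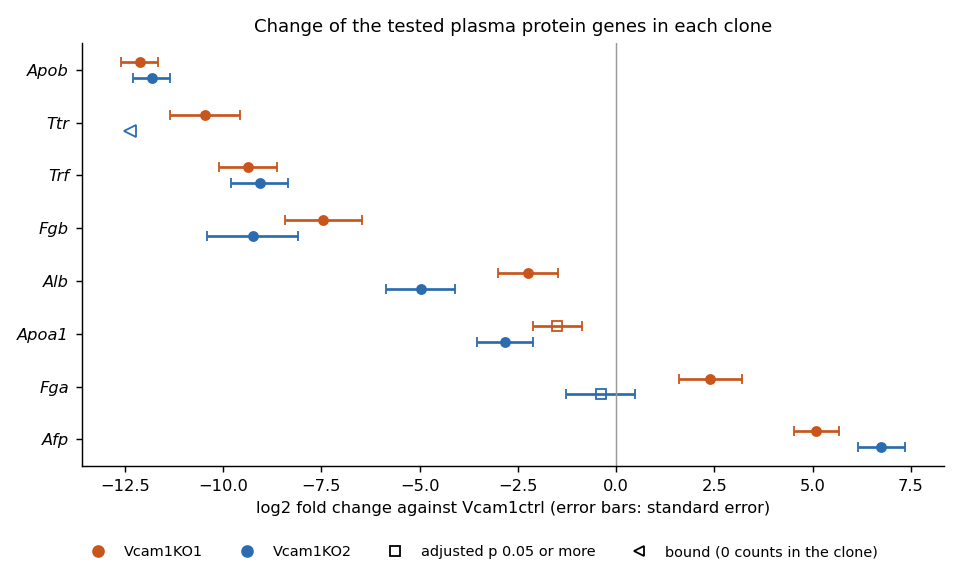
Log2 fold change against Vcam1ctrl of the 8 tested genes in Vcam1KO1 and Vcam1KO2, with standard errors from the fit over all 9 libraries. Open squares are changes with an adjusted p of 0.05 or more (Apoa1 in Vcam1KO1, Fga in Vcam1KO2) and the triangle is the bound for Ttr in Vcam1KO2, where 0 counts were found. Apob, Ttr, Trf and Fgb lie furthest to the left and Afp furthest to the right.

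Levels of different genes were set side by side per kb of coding length. In Vcam1ctrl the order of mean levels was Trf (1018 CPM per kb), Ttr (180), Apob (34.4), Alb (5.57), Fgb (2.85), Apoa1 (0.520), Fga (0.0691), Afp (0.0553), Fgg (0.0063) and Ahsg (0). Trf, Ttr and Apob did not overlap with the next gene in this order, while Alb overlapped Fgb, Fgb overlapped Apoa1, Fga overlapped Afp and Fgg overlapped Ahsg. In Vcam1KO1 the order began with Afp (1.78 CPM per kb), Trf (1.55) and Alb (1.18), which overlapped each other in that order. In Vcam1KO2 it began with Afp (5.62 CPM per kb), Trf (1.90) and Alb (0.177), and Afp lay above Trf in every library. Apob, the third in the control, stood at 0.0076 CPM per kb in Vcam1KO1, overlapping Fgb (0.0141) near the detection limit.

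The control libraries themselves differed for these genes. The ratio of replicate 3 to the mean of replicates 1 and 2 was 7.28 for Alb, 6.80 for Fga, 3.89 for Fgb, 2.76 for Ttr, 2.01 for Apoa1, 1.75 for Trf, 1.38 for Apob and 0.532 for Afp. Replicate 2 was the lowest control library for 6 of the 8 genes, and it was also the least deep. Hnf4a, a liver transcription factor, had a ratio of 1.27 in the same library. The part of passage in this spread was not tested.

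Between the clones Alb was higher in Vcam1KO1 by a log2 of 2.73 (standard error 0.83, adjusted p = 0.027), Fga was higher by 2.80 (standard error 0.83, adjusted p = 0.026) and Afp was lower by 1.65 (standard error 0.45, adjusted p = 0.017). These are 2 genes called higher and 1 called lower of the 8 tested, where 20.2% and 18.5% of all tested genes were called. The libraries of the 2 clones did not overlap for any of the 3 genes. The remaining 5 genes were not called: Apoa1 (1.34, adjusted p = 0.19), Ttr (adjusted p = 0.20, with 12 and 0 counts), Fgb (adjusted p = 0.47, with 5 and 1 counts), Apob (-0.31, standard error 0.58, adjusted p = 0.70) and Trf (-0.31, standard error 0.53, adjusted p = 0.67). Without Vcam1KO1 replicate 3, Trf was lower in Vcam1KO1 by 1.30 (adjusted p = 0.021) and Alb was no longer called (2.48, adjusted p = 0.065). Leaving out Vcam1KO1 replicate 1 or any 1 of the 3 Vcam1KO2 libraries left Afp as the single call.

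With both clones set together against the control, 1 gene (Afp) rose, 6 fell and 1 (Fga, log2 change 1.61, adjusted p = 0.28) was not called, where 21.7% of all tested genes rose and 21.2% fell. The log2 change was -11.96 for Apob (standard error 0.45, adjusted p = 3.1e-07), -9.21 for Trf (standard error 0.55, adjusted p = 3.2e-06), -3.04 for Alb (standard error 0.92, adjusted p = 0.025) and 6.10 for Afp (standard error 0.89, adjusted p = 5.5e-04). Ttr was at -11.33 (-10.66 without Vcam1ctrl replicate 3, -12.07 and -12.09 without Vcam1KO1 replicate 1 or 3) and Fgb at -8.06 (-7.10 without Vcam1ctrl replicate 3). Apoa1 was called at -1.99 (adjusted p = 0.030), and its groups and those of Alb overlapped. Without Vcam1ctrl replicate 3, Alb (-1.42, adjusted p = 0.25) and Apoa1 (-1.58, adjusted p = 0.13) were not called. Apoa1 also missed the threshold without Vcam1ctrl replicate 1 (adjusted p = 0.055), Vcam1KO1 replicate 2 (0.054) or Vcam1KO2 replicate 2 (0.0504), and was -2.77 without Vcam1KO1 replicate 1.

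Several of the genes lie in clusters that arose by duplication, and the neighbours were read in chromosomal order. The albumin cluster on chromosome 5 spans 92.7 kb and holds Alb, Afp and afamin (Afm), a vitamin E carrier. Afm rose in Vcam1KO1 from 0.413 ± 0.168 to 8.37 ± 2.90 CPM (SD, n = 3; log2 change 4.33, adjusted p = 1.2e-05) and stood at 0.734 ± 0.163 CPM in Vcam1KO2 (0.82, adjusted p = 0.087), a clone difference of 3.51 (adjusted p = 1.5e-04). Within this cluster Vcam1KO1 thus held Afm above Afp above Alb by mean, Vcam1KO2 held Afp above Afm above Alb, and Vcam1ctrl held Alb above Afm above Afp. Ankrd17, the tested gene before Alb at a gap of 92.2 kb, rose by 0.69 in Vcam1KO1.

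The fibrinogen cluster on chromosome 3 (42.1 kb) holds Fgg, Fga and Fgb, with Fga and Fgb 8.62 kb apart and on opposite strands. Plrg1, a splicing factor gene 5.67 kb beyond Fgb, stood at 65.6, 51.6 and 65.3 CPM by group mean and was not called (adjusted p = 0.065 and 0.98), and Map9, before Fgg, rose by 0.90 and 0.77. Beside Apoa1 on chromosome 9 lie Apoc3, Apoa4 and Apoa5 (43.3 kb together), none of which passed the filter, with 27 Apoc3 counts in Vcam1ctrl, 1 in Vcam1KO1 and 0 in Vcam1KO2. The fetuin cluster on chromosome 16 (190 kb) holds Ahsg, Fetub, Hrg, Kng2 and Kng1. There fetuin-B (Fetub) fell in both clones, from 4.98 ± 0.40 CPM to 0.642 ± 0.389 and 1.13 ± 0.22 CPM (log2 changes of -2.94 and -2.14, adjusted p = 4.4e-04 and 0.0029), while kininogen 2 (Kng2) rose from 0.0755 to 2.36 and 5.10 CPM (4.99 and 6.10, adjusted p = 5.3e-04 and 2.2e-04).

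**Figure D3:**
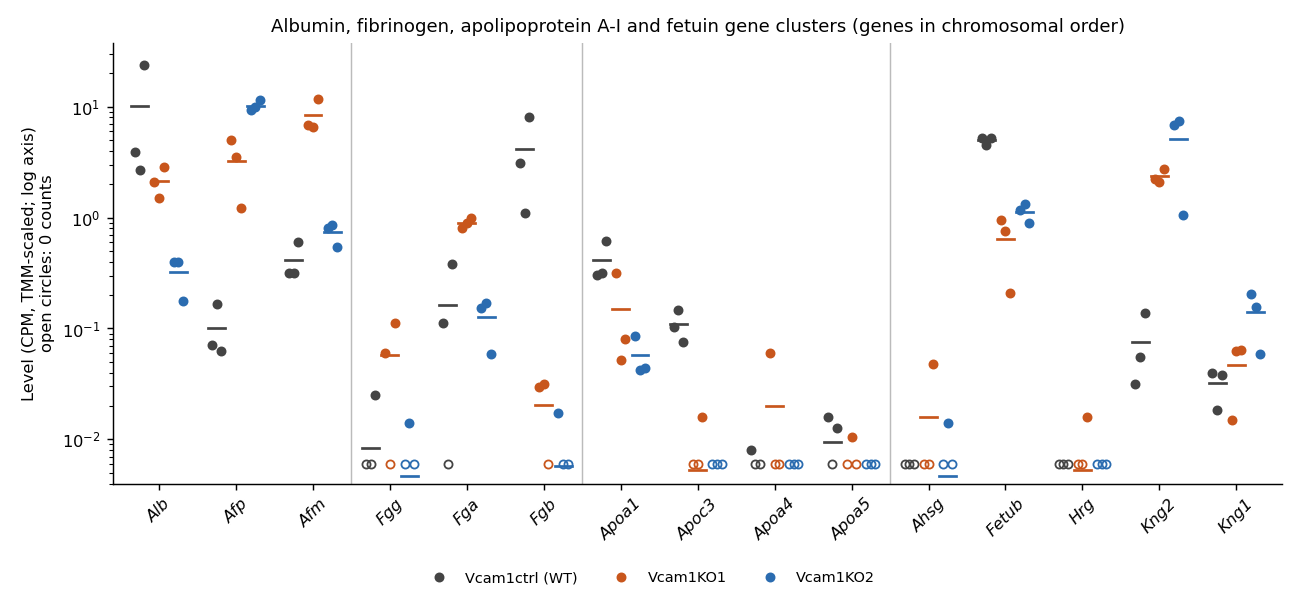
Level in CPM on a log axis of the genes of the albumin, fibrinogen, apolipoprotein A-I and fetuin clusters in chromosomal order, 3 libraries per group, bars at group means, open circles for 0 counts. Genes of the same cluster move in opposite directions in the albumin cluster (Alb and Afp), the fibrinogen cluster (Fga and Fgb in Vcam1KO1) and the fetuin cluster (Fetub and Kng2, with Hrg between them).

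Outside the clusters the nearest tested genes on either side of Apob were Atad2b, at a gap of 2930.2 kb, and Ldah, at 191 kb. Atad2b rose by 0.45 in Vcam1KO1 from 18.2 CPM by control mean and was not called in Vcam1KO2 (0.30, adjusted p = 0.10), and Ldah rose by 0.64 and 0.86 from 37.7 CPM. Beside Trf, Srprb lay 6.81 kb away and fell by 0.43 in Vcam1KO1 and rose by 0.64 in Vcam1KO2, and Topbp1, on the other side at 74.9 kb, was not called in either clone (adjusted p = 0.42 and 0.081). Dsg2, a desmosomal cadherin and the nearest tested gene before Ttr, fell from 137 CPM to 0.0705 and 0.050 CPM by group mean. The pseudogene Gm10269, after Ttr, was not called in either clone (adjusted p = 0.059 and 0.23). Sik3, before Apoa1, was not called in either clone (adjusted p = 0.68 and 0.50), while Zpr1, on the other side at 42.6 kb, fell in Vcam1KO1 (-1.03, adjusted p = 1.9e-04) and was not called in Vcam1KO2 (0.03, adjusted p = 0.89). Dnajb11, before Ahsg, rose in both clones (0.85 and 0.31, adjusted p = 6.4e-05 and 0.023).

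The factors that hepatocytes use to transcribe these genes were then read as a list of 27, of which 25 were tested. In Vcam1KO1 9 rose and 13 fell, with a median log2 change of -0.95, and in Vcam1KO2 6 rose and 14 fell, with a median of -0.98. The shares of all tested genes called higher and lower, 29.9% and 30.0% in Vcam1KO1 and 25.3% and 26.1% in Vcam1KO2, are the background of this and of each later list. Hnf4a, the master nuclear receptor of the hepatocyte, stood at 208, 207 and 264 CPM in Vcam1ctrl and at 0 counts in all 6 clone libraries, at least 16887-fold and 14744-fold higher in control than in Vcam1KO1 and Vcam1KO2. The libraries in which Afp had risen held 0 counts of Hnf4a, and a link between these genes was not tested.

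Foxa2, a pioneer factor, fell from 53.3, 50.2 and 68.5 CPM to at most 0.135 CPM in Vcam1KO1 (-9.44, adjusted p = 3.7e-07) and to 1.56, 1.80 and 3.46 CPM in Vcam1KO2 (-4.65, adjusted p = 5.2e-06). Its relative Foxa1 rose from 0.598, 0.517 and 0.746 CPM to between 8.88 and 10.4 CPM in Vcam1KO1 (3.94, adjusted p = 3.3e-07) and to 12.4 ± 0.42 CPM (SD, n = 3) in Vcam1KO2 (4.32, adjusted p = 3.2e-07). Foxa3, Onecut1, Prox1, Nr5a2 and Creb3l3 fell in both clones from control levels of at most 3.54 CPM to at most 19 counts per clone. The ratios of control to clone lay between 23.6 (95% counting interval 14.8 to 40.1) for Creb3l3 in Vcam1KO2 and 299.9 (82.7 to 2482) for Onecut1 in Vcam1KO1. Prox1 had 0 counts in Vcam1KO2, where the control was at least 175-fold higher. Cebpd rose in both (4.14 and 2.27), as did the bile acid receptor Nr1h4 (1.74 and 1.01) and Rxra (1.39 and 0.78), and Cebpa rose in Vcam1KO1 (1.91, adjusted p = 0.0012) and was not called in Vcam1KO2 (0.76, adjusted p = 0.093).

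**Figure D4:**
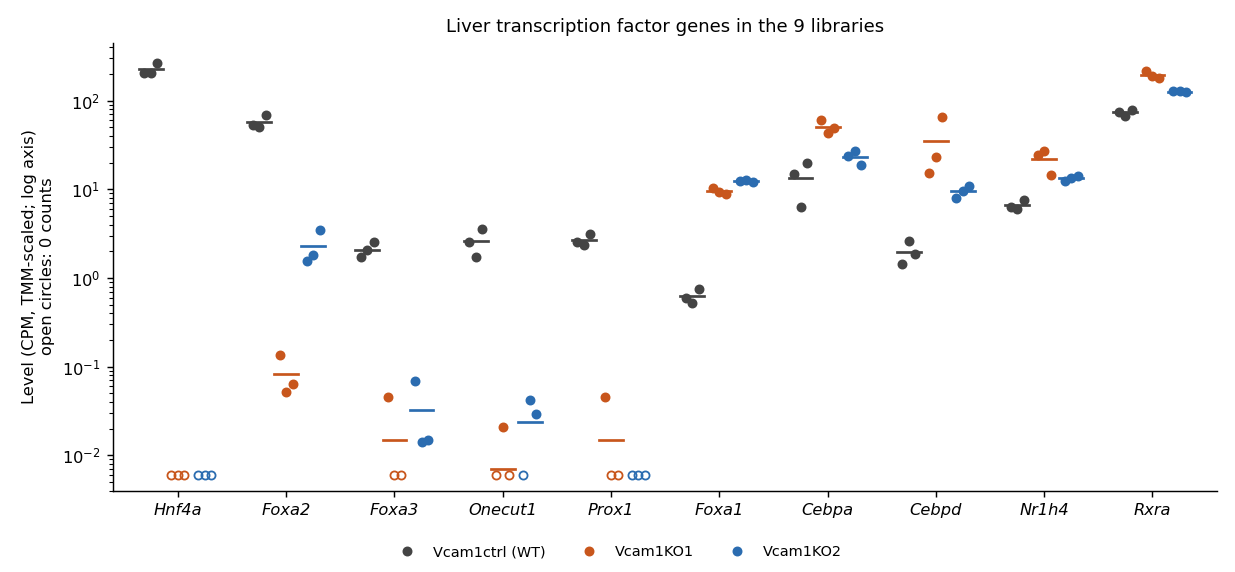
Level in CPM on a log axis of 10 liver transcription factor genes, 3 libraries per group, bars at group means, open circles for 0 counts. Hnf4a has 0 counts in all 6 clone libraries, and Foxa1, Cebpd, Nr1h4 and Rxra lie above the control.

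Of 8 genes known to act on Afp, 3 rose and 5 fell in Vcam1KO1, and 2 rose and 3 fell in Vcam1KO2. Zbtb20, a repressor of Afp after birth, rose from 43.2, 31.1 and 55.8 CPM to 131 ± 7.08 CPM (SD, n = 3) in Vcam1KO1 (1.59, adjusted p = 7.9e-05) and to between 62.0 and 74.9 CPM in Vcam1KO2 (0.66, adjusted p = 0.014). Zhx2, another postnatal repressor, fell in Vcam1KO1 (-0.66, adjusted p = 0.012) and was not called in Vcam1KO2 (-0.38, adjusted p = 0.11). Zfhx3, a repressor that binds an AT-rich motif, rose in Vcam1KO1 (0.68, adjusted p = 0.041) and was not called in Vcam1KO2 (-0.28, adjusted p = 0.38). Zbtb20 was higher in Vcam1KO1 than in Vcam1KO2 (clone difference 0.93, adjusted p = 0.0042), and Afp rose in both clones as well. The part of these genes in the level of Afp was not tested.

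Of 74 other plasma proteins of the liver, 46 were tested, 14 of which rose and 25 of which fell in Vcam1KO1, with a median log2 change of -1.55. In Vcam1KO2 11 rose and 16 fell, with a median of -0.20. The summed level of the list was 1827 to 2623 CPM in Vcam1ctrl, 2710 to 4635 CPM in Vcam1KO1 and 2865 to 4775 CPM in Vcam1KO2. This sum did not fall as that of the 10 genes did, but a sum follows the most abundant genes. By gene, more of the list fell than rose in each clone. Serpina1b, an alpha-1-antitrypsin whose near-identical copies can share reads, fell from 57.0, 59.2 and 157 CPM to 3 and 6 counts in the clones, ratios of 6605 (95% counting interval 2259.8 to 32031) and 2883 (1325 to 7858). Serpinf1, the anti-angiogenic factor PEDF, which is also made by mesenchymal cells, rose from 203, 232 and 77.1 CPM to between 1059.97 and 1932 CPM in the clones (3.29 and 2.89, adjusted p = 5.6e-05 and 1.4e-04). Igf1, insulin-like growth factor 1, rose from at most 0.152 CPM to between 30.3 and 187 CPM (10.25 and 9.30, adjusted p = 1.0e-05 and 2.1e-05).

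The vitamin D binding protein Gc, the relative of albumin, separated the clones. It stood at 577, 527 and 888 CPM in Vcam1ctrl, at 39.7, 27.2 and 19.7 CPM in Vcam1KO1 and at 1017, 1047 and 595 CPM in Vcam1KO2. It fell in Vcam1KO1 (-4.52, adjusted p = 5.8e-06), was not called in Vcam1KO2 (0.42, adjusted p = 0.29) and differed between the clones by 4.94 (adjusted p = 1.9e-05). Ceruloplasmin (Cp), a copper protein that oxidizes iron for loading onto transferrin, rose in Vcam1KO2 (1.30, adjusted p = 0.033) and was not called in Vcam1KO1 (0.75, adjusted p = 0.17).

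Among the 10 tested hepatocyte enzymes and transporters 3 rose and 3 fell in Vcam1KO1, and 2 rose and 4 fell in Vcam1KO2. Aldh1l1, a folate enzyme, rose from between 13.6 and 16.1 CPM to between 65.6 and 97.2 CPM (2.52 and 2.26, adjusted p = 4.3e-07 and 1.0e-06). Fah, the last enzyme of tyrosine breakdown, also rose (2.47 and 1.27), while Ass1 of the urea cycle was not called in either clone (adjusted p = 0.65 and 0.82).

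Genes for lipoprotein assembly moved both ways. Of 20 listed, 18 were tested, 4 of which rose and 9 fell in Vcam1KO1, with a median of -0.29, and 6 rose and 9 fell in Vcam1KO2, with a median of -0.29. P4hb, the chaperone subunit that pairs with the lipid transfer protein, was the most abundant, at 1329 to 2067 CPM in all 9 libraries (0.25 and 0.38, adjusted p = 0.15 and 0.044), and Surf4, a cargo receptor, rose in Vcam1KO2 (0.52, adjusted p = 0.0023). Soat2, which esterifies cholesterol for secretion, fell from 62.4, 87.7 and 73.9 CPM to at most 0.177 CPM in Vcam1KO1 and to 13.8, 14.2 and 1.6 CPM in Vcam1KO2 (-2.92, adjusted p = 0.0039). Abca1, the cholesterol exporter that loads apolipoprotein A-I, rose from 21.5, 12.1 and 11.1 CPM to between 124 and 289 CPM (4.16 and 3.21, adjusted p = 1.4e-06 and 6.9e-06).

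Of 24 receptors of the plasma proteins 22 were tested, with 8 higher and 8 lower in Vcam1KO1 and 8 higher and 7 lower in Vcam1KO2, beside 29.9% higher and 30.0% lower in Vcam1KO1 and 25.3% and 26.1% in Vcam1KO2 among all tested genes. Sparc, a matrix protein that binds albumin, rose from between 356 and 503 CPM to between 3879.5 and 6841 CPM (3.74 and 3.32), and Lrp1, an endocytic receptor of lipoprotein remnants, rose by 2.37 and 1.68 (adjusted p = 5.0e-05 and 4.8e-04). Icam1, a leukocyte adhesion molecule that also binds fibrinogen, fell from 65.5, 39.2 and 61.9 CPM to at most 0.600 CPM (-7.46 and -6.92).

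Of 16 iron genes 15 were tested, with 6 higher and 5 lower in Vcam1KO1 and 4 higher and 5 lower in Vcam1KO2, beside 29.9% higher and 30.0% lower in Vcam1KO1 and 25.3% and 26.1% in Vcam1KO2 among all tested genes. Steap3, the endosomal reductase for transferrin iron, rose from between 19.0 and 22.5 CPM to between 179 and 237 CPM (3.22 and 3.46, adjusted p = 8.0e-08 and 8.1e-08), and Heph, a ferroxidase, fell (-7.23 and -5.09). The ferritin chains Fth1 and Ftl1, which store iron, were not called in either clone, at 2242 to 3271 CPM and 1391 to 2212 CPM in all 9 libraries.

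Of 14 genes of fibrinogen assembly and fibrinolysis 9 were tested, with 4 higher and 3 lower in Vcam1KO1 and 2 higher and 4 lower in Vcam1KO2, beside 29.9% higher and 30.0% lower in Vcam1KO1 and 25.3% and 26.1% in Vcam1KO2 among all tested genes. F3, tissue factor, rose in Vcam1KO1 (2.14, adjusted p = 1.2e-04) and was not called in Vcam1KO2 (-0.63, adjusted p = 0.071), and Tfpi, its inhibitor, rose in Vcam1KO1 (adjusted p = 0.0078) and fell in Vcam1KO2 (-5.92, adjusted p = 1.5e-06). Plaur, the urokinase receptor, fell in both clones (-4.36 and -1.55), and Plat, tissue plasminogen activator, fell in Vcam1KO1 (-2.31) and was not called in Vcam1KO2 (-0.29, adjusted p = 0.18).

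The genes whose log2 levels followed each gene most closely over the 9 libraries were listed as a description, since the groups alone make such values high. The closest to Apob was Cdh17, the liver-intestine cadherin (Pearson r = 0.999), at 586 CPM in Vcam1ctrl and 0.644 and 1.05 CPM in the clones, followed by Nostrin and Fermt1 (r = 0.998 for both). Ttr was followed by Tmc5, Sec14l2 and Prr15l (r = 0.998, 0.997 and 0.997), Trf by Frmd4b, Slc7a7 and Fam241b (0.997, 0.996 and 0.996) and Fgb by Foxj1, Trpv4 and Nrk (0.995, 0.994 and 0.993). Afp was followed by Sec24d, Fcrlb and Pter (0.996, 0.994 and 0.994) and Alb by Flrt1, Irf7 and Cryab (0.985, 0.979 and 0.979). Apoa1 (Cbx3-ps6, Peg3 and Slc8a1) and Fga (4930540M05Rik, Ift140 and Tulp4) had values between 0.946 and 0.983. Among the 10 genes themselves Ttr, Apob, Trf and Fgb formed pairs with r between 0.952 and 0.979, and Fga had values between -0.49 and 0.26 with the other tested genes.

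Markers of other cell types were read in the same libraries. Of 14 cholangiocyte markers 12 were tested, and in each clone 8 fell and 1, Spp1, rose, with summed levels of 13370 to 15044 CPM in Vcam1ctrl, 10966 to 11477 CPM in Vcam1KO1 and 7951 to 11473 CPM in Vcam1KO2, mostly Spp1 in the clones. Krt18 fell from between 3179 and 3676 CPM to 8 and 3 counts in the clones. Of 15 stellate cell and fibroblast markers 11 were tested, with 7 higher and 2 lower in Vcam1KO1 and 8 higher and 0 lower in Vcam1KO2, and sums of 435 to 840, 12566 to 15975 and 6772 to 9113 CPM. Col1a1 rose from 107, 136 and 55.0 CPM to between 4199 and 9204 CPM (6.42 and 5.57) and Postn from at most 0.725 CPM to between 550.5 and 2926 CPM.

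Of 14 enterocyte and yolk sac markers, listed because those tissues also make Apob and Afp, 8 were tested, with 2 higher and 6 lower in Vcam1KO1, 2 higher and 5 lower in Vcam1KO2, and sums of 884 to 1050, 90.5 to 120 and 128 to 142 CPM. Cdx2, an intestinal factor, fell from 18.2, 14.3 and 20.7 CPM to 1 and 0 counts, and Sox17 had 0 counts in all libraries. Of 13 blood cell markers 7 were tested (2 higher and 4 lower in Vcam1KO1, 0 higher and 4 lower in Vcam1KO2), with sums of 113 to 175, 33.2 to 42.0 and 45.3 to 50.4 CPM, mostly Cd14, while Cd3e and Hbb-bs had at most 1 count in any library. Lyz2 of that list had 29 counts in Vcam1ctrl, 935 in Vcam1KO1 and 43 in Vcam1KO2. Of 12 endothelial markers 5 were tested (1 higher and 2 lower, and 1 higher and 1 lower), with sums of 11.5 to 15.3, 7.33 to 10.2 and 2.44 to 3.41 CPM, and Clec4g at 0 counts throughout. Stab2 of that list had 4 counts in Vcam1ctrl, 618 in Vcam1KO1 and 84 in Vcam1KO2. The part of these genes in the changes of the plasma protein genes was not tested, and in bulk RNA fewer cells of a type and less RNA per cell cannot be told apart.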

How the data were processed

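Polyadenylated RNA of Vcam1ctrl, Vcam1KO1 and Vcam1KO2 PPTR cells was read by the authors as paired ends from strand-specific libraries, 3 per group. The authors pseudoaligned the reads with kallisto (0.46.1 in the submitters' processing notes) to GRCm38 transcripts and deposited estimated counts per gene symbol, not normalized, so that reads shared by near-identical copies are split by estimate. All deposited estimated counts were whole numbers and were used as counts. Library totals ran from 53415907 to 125223073. 3 counts over a group were the detection limit, and counting intervals (95%, exact binomial) cover counting error only.

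Groups came from the sample titles. Low counts were removed by filterByExpr of edgeR 4.0.16 in R 4.3.3, leaving 17672 genes, and libraries were scaled by TMM. The quasi-likelihood test of edgeR was used in 1 fit of 3 groups for each clone against Vcam1ctrl and for Vcam1KO1 against Vcam1KO2, and in a fit of 2 groups for both clones together, with Benjamini-Hochberg adjustment over all tested genes and a threshold of 0.05. The comparisons with Vcam1ctrl share its 3 libraries. Fold changes are on a log2 scale. The study used TMM with voom, run here with limma 3.58.1 as an alternative beside DESeq2 1.42.0, upper-quartile scaling, no filter, a filter at a mean of 1 CPM, a test against a 2-fold change, the 2 groups alone, the average of the clones' contrasts, and each library left out. The scripts were tested on simulated data.

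The 10 genes and the lists were chosen with earlier results of these data known. Named from each list were the 3 most abundant genes and, per clone, the largest increase and decrease with a mean of at least 1 CPM, besides all 10 genes, liver transcription factors, Afp regulators, nearest tested neighbours and the 3 most alike genes. Single genes outside this rule (Hpd, Cyp3a11, Cyp2e1, Otc, Tat, Krt18, Cd3e, Hbb-bs, Sox17, Clec4g, Kng2 and the other cluster genes) were chosen after their values were seen. Lyz2 and Stab2 were also added after their values were seen. Some genes that the rule names, some alleles and 1 motif are not reported here. Gene positions are from GENCODE vM21 on GRCm38, the clusters, neighbours and start sites from RefSeq on the same build (GRCm38.p6). Coding length is the longest annotated. Levels for likeness used a prior count of 2. Libraries of a group differed by more than sampling noise.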

Additional observations from a re-analysis of the deposited data

Results flagged for a closer look

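Differences between the clones were seen for 3 of the 8 tested genes. Of all tested genes 20.2% were called higher and 18.5% lower in Vcam1KO1 than in Vcam1KO2, so such differences were not particular to these genes. Alb was 2.73 higher (log2) in Vcam1KO1 than in Vcam1KO2, Fga was 2.80 higher and Afp was 1.65 lower (a value of -1.65), each by the test of the clones against each other (adjusted p = 0.027, 0.026 and 0.017 with edgeR), and each in 3 of 3 libraries. The values of Alb and Fga missed the threshold in several fits with a library left out, and those of Afp in none of them.

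Apoa1 of Vcam1KO1 replicate 1 stood apart from the other 5 clone libraries, with a gap of 0.841 of the whole range, where 0.625 is Dixon's limit for 6 libraries. It had 21 counts where the others had 3 to 5. Chance alone sets about 1 in 20 such groups apart.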

How the results depend on the processing

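The number of genes called was 7 in Vcam1KO1, 7 in Vcam1KO2 and 7 for both clones together, and stayed within 1.5 times of it under the alternatives run. Leaving out 1 library gave 5 to 7, 7 to 7 and 5 to 7 calls. Ttr and Fgb passed the filter through the control libraries alone and Afp through the clone libraries alone. A steady count was therefore partly set by the filter. The genes behind a count could also change. With limma-voom Vcam1KO1 again had 7 calls, without Alb (adjusted p = 0.096) and with Apoa1 (adjusted p = 0.026). Of all tested genes 29.9% rose and 30.0% fell in Vcam1KO1, 25.3% and 26.1% in Vcam1KO2, and 21.7% and 21.2% for both together. Between the clones 3 genes were called, 1 to 3 with a library left out and 0 in the test against a 2-fold change, which demands more of each gene. In that test of edgeR 3 of the 8 genes had an unadjusted p under 0.05, and limma-voom called 2 genes and DESeq2 4. Signs turned for 3 values that were not called. Fga in Vcam1KO2 was -0.40, and 0.56 with limma-voom, 0.85 without both Vcam1ctrl replicate 3 and Vcam1KO1 replicate 3, and -0.93 to 0.89 with 1 library left out. Apob between the clones was -0.31, 0.097 without those 2 libraries and -1.21 to 0.11 with 1 left out, and Trf between the clones was -0.31 and -1.30 to 0.054. Leaving out both libraries was chosen after seeing the data. Of the results under alternatives, 488 kept their direction and side of the threshold, 33 lost the call, 5 gained it and 6 turned. The cause was not tested. No paired analysis was possible because the labels give the libraries of different groups no shared replicate numbers. Fgg and Ahsg, at under 12 counts per group, were limited by depth, as were Ttr, Fgb and Apob in the clones.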
